A study of Mus musculus with 9 samples.

Results

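The genes described here encode the proteins of the cytosolic ribosome, the particle that translates messenger RNA outside mitochondria. They were picked by a naming rule, with earlier results of these data known. The rule takes protein-coding mouse genes whose symbol starts with Rpl or Rps and a digit, together with Rplp0, Rplp1, Rplp2 and Rpsa. Of 102 protein-coding symbols that matched, 10 Rps6k kinase genes, Rps19bp1 and 6 pseudogene symbols were left out. This left 85 of the 54532 genes of the count table, 52 for the large subunit and 33 for the small subunit. Of these, 84 had enough reads to be tested. The remaining member, Rpl10l, a copy of Rpl10 known from mouse testis, had 0 reads in every library.

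Cytosolic ribosomes join ribosomal RNA with a fixed set of proteins, each normally present as a single copy per subunit apart from the acidic proteins of the stalk, so the genes are usually transcribed at a high and coordinated rate. Their messenger RNAs typically begin with a C followed by a run of pyrimidines, the 5′ terminal oligopyrimidine (TOP) tract. Through this tract mTORC1 and LARP1 control their translation. A few members have paralogs with restricted expression, and a few have roles outside the ribosome. Osteoclasts are large multinucleated cells that secrete acid and proteases onto bone, which places a heavy load on protein synthesis.

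RNA was sequenced from osteoclasts grown in culture from mouse bone marrow, in 3 groups of 3 libraries. KO_4OI and KO_CTR both carried the genotype label Acod1 KO, a deficiency of the gene that encodes the itaconate-producing enzyme of macrophages, and WT_CTR was labelled WT. KO_4OI received 50 µM 4-octyl-itaconate, a cell-permeable itaconate ester, on day 1, and KO_CTR and WT_CTR were left without it. All groups received 5 ng/ml M-CSF during the first night, then 20 ng/ml M-CSF with 10 ng/ml RANKL, and RNA was taken on day 3. No wild-type cells received the compound, so KO_4OI against WT_CTR joins genotype label and treatment. The comparisons of KO_4OI with KO_CTR and of KO_CTR with WT_CTR share the KO_CTR libraries. The labels give neither mouse strain, sex and age nor how many animals each group came from.

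The annotated starts of some of the genes that the results turn on are given here because the TOP tract lies at the first base of the transcript. Each line gives 30 bases of the gene's own strand, 5′ to 3′, 15 before a RefSeq start and 15 from it onward, on GRCm38.p6. Rps27l and Rpl22 had 2 RefSeq promoter entries each. For a gene with several entries, the entry with the longest marked run is shown, or the first entry where none held a run. Capitals mark a C lying at most 5 bases from the start together with the unbroken run of at least 4 C or T that follows it, and a window without capitals holds no such run.
Rps27 (chr3:90213634-90213663, minus strand): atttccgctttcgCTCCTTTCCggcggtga
Rps27l (chr9:66946071-66946100, plus strand): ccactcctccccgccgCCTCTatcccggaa
Rpl22 (chr4:152325711-152325740, plus strand): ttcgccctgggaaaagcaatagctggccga
Rpl22l1 (chr3:28805493-28805522, plus strand): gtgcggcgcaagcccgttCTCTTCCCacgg
Rpl39 (chrX:37085208-37085237, minus strand): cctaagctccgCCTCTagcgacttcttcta
Rpl39l (chr16:10170213-10170242, plus strand): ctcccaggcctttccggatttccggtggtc
Rpl13a (chr7:45128731-45128760, minus strand): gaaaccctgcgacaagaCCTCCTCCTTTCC
Rpl27a (chr7:109519180-109519209, plus strand): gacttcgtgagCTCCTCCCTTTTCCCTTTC
Rps6 (chr4:86857353-86857382, minus strand): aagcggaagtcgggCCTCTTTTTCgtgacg
Rps27 and its paralog Rps27l both held a tract by this rule, whereas Rpl39l and Rpl22 did not and their partners Rpl39 and Rpl22l1 did. For Rpl39l this rests on the bound of 5 bases. Its window holds a C and a run of pyrimidines that begins farther before the start and ends next to it. That run would count with the C allowed up to 10 bases from the start. The tract was searched on the gene's strand only, and a gene was counted if any of its promoter entries held it. It was found in 30 of the 65 members with a RefSeq promoter entry (46.2%), in 14 of 69 mitochondrial ribosomal protein genes (20.3%) and in 19.7% of all 27025 genes with an entry. With at least 6 pyrimidines after the C, the shares were 35.4% of members, 2.90% of mitochondrial ribosomal protein genes and 7.06% of all genes. With the C allowed up to 10 bases from the start they were 61.5%, 43.5% and 33.3%. These matches describe the letters around annotated starts and do not show where transcripts began in these cells.

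Totals ran from 24830149 to 35143629 counted reads per library. Acod1, the gene named in the genotype label, had 135, 168 and 131 reads in KO_4OI libraries, 60, 86 and 47 in KO_CTR libraries and 24, 27 and 55 in WT_CTR libraries, so its counts did not separate the libraries labelled Acod1 KO from the others as a loss of reads. The deleted bases are not known from the labels, and reads of the gene may therefore not test the genotype. Xist, which is transcribed in cells with 2 X chromosomes, had 8764 reads in KO_4OI replicate 3, 10715 in WT_CTR replicate 2 and 0 in the other 7 libraries. KO_CTR thus had no library with Xist reads, so the mix of sexes differed between KO_CTR and the groups compared with it. All 12 osteoclast markers examined had reads, but so did all B cell, T and NK cell, neutrophil, erythroid and stromal markers examined. Having reads therefore does not identify the cell type. The osteoclast markers summed to 9149 to 11650 CPM (reads scaled to a common library size) in KO_4OI, 28063 to 34564 in KO_CTR and 24999 to 26311 in WT_CTR. The 10 macrophage and monocyte markers summed to 20254 to 26857 CPM in KO_4OI, 8667 to 11990 in KO_CTR and 6407 to 8138 in WT_CTR, and the 10 cell cycle markers to 1919 to 1965, 1019 to 1407 and 1636 to 1841 CPM in the same order of groups. Dendritic cell markers summed to 255 to 286 CPM in KO_4OI, 730 to 1252 in KO_CTR and 358 to 631 in WT_CTR. None of these lists had a marker at 0 in all libraries. In bulk RNA, a change in the number of cells of a type and a change in RNA per cell cannot be told apart, and the part of these markers in the results below was not tested.

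Ribosomal protein genes were among the most heavily counted genes of these cells. In WT_CTR, 40 members averaged at least 1000 CPM, 36 averaged 100 to 1000, 2 averaged 10 to 100 and 7 were below 10 CPM. Over the whole table, members made up 0 of the 10, 8 of the 50, 28 of the 100, 57 of the 200 and 74 of the 500 most counted genes. Per kilobase of the principal transcript, the highest WT_CTR level was that of Rplp1, an acidic protein of the stalk that recruits elongation factors, at 4130 ± 624 CPM per kb (SD, n = 3). Rpl41, which encodes a very short basic peptide of the large subunit, followed at 3070 ± 325 CPM per kb. The small subunit proteins Rps2 (2351 ± 356 CPM per kb), Rps12 (2333 ± 257 CPM per kb) and Rps18 (2220 ± 265 CPM per kb) came next and did not differ from each other beyond their SDs. Of the 10 highest members per length, 9 were common to the 3 groups. The order depends on the transcript model: with the union of all annotated exons as length, 6 of the WT_CTR top 10 and 1 of the top 5, Rplp1, stayed there.

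At the low end stood paralogs and members whose reads are hard to assign. Rpl3l, known as the striated muscle counterpart of Rpl3, had 0.445 ± 0.0302 CPM per kb in WT_CTR (SD, n = 3), and Rpl39l, the paralog of Rpl39 known for its part in mouse sperm formation, had 1.55 ± 0.819 CPM per kb. Rpl24, which sits at the interface of the subunits, had 2.45 ± 0.470 CPM per kb, Rpl36al, a paralog of Rpl36a, 3.71 ± 0.875 and Rps10, a small subunit protein ubiquitinated when ribosomes collide, 5.65 ± 0.453. At least 20% of the exon bases of 4 members (Rpl24, Rps10, Rpl13a and Rpl36al) overlapped another gene on the same strand, and all 4 averaged under 100 CPM, against 5 of the other 81 members. For Rpl24 the overlapped share was 47.0%, and the annotated processed transcript over it had 0 reads in every library. Reads that fit 2 genes may have been left out of the counts, so the levels of these 4 members are uncertain, and that cause was not tested.

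**Figure D1:**
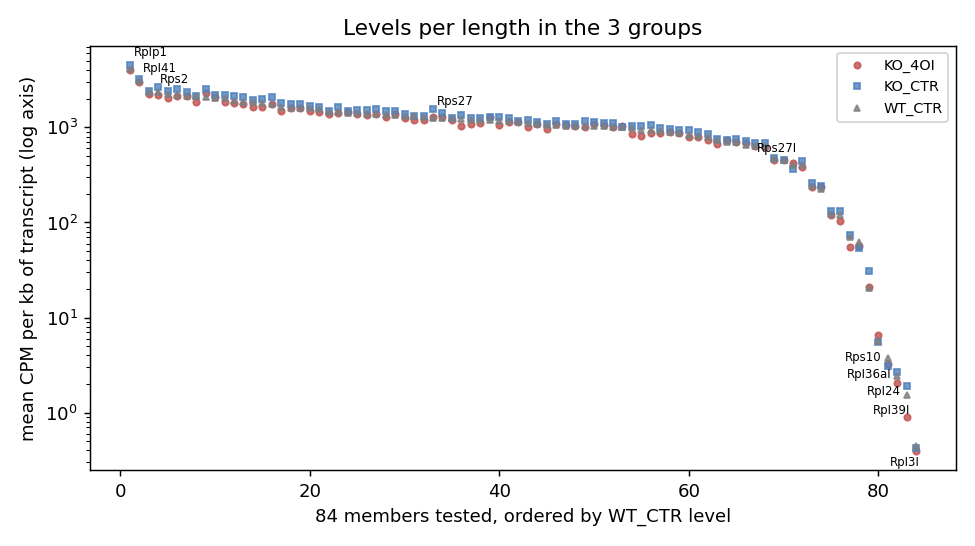
Mean level of each of the 84 members tested, in CPM per kb of the principal transcript (log axis), ordered by the WT_CTR mean; symbols mark the groups, each the mean of 3 libraries. The 3 groups follow each other along the whole order, from Rplp1 at 4001, 4510 and 4130 CPM per kb in KO_4OI, KO_CTR and WT_CTR to Rpl3l at 0.397, 0.424 and 0.445.

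Near-identical copies make further values less certain. The table held 298 pseudogene entries named after 60 of the members, and their summed reads equalled 0.361% to 0.411% of the members' reads in 8 libraries and 0.265% in WT_CTR replicate 1. Among the 37 pseudogene entries with at least 300 reads in all, 25 had their lowest ratio to the parent gene in WT_CTR replicate 1. Rps27rt, a retrotransposed copy of Rps27 counted as a member, showed the same library apart. It had 199, 220 and 218 reads in KO_4OI libraries, 270, 364 and 286 in KO_CTR libraries and 65, 301 and 371 in WT_CTR libraries, with the lowest count in WT_CTR replicate 1. With the pseudogene reads added, the members' mean share of reads was 7.59% in KO_4OI, 8.72% in KO_CTR and 8.03% in WT_CTR, against 7.56%, 8.69% and 8.002% without them.

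Members deviated together from library to library within a group. Among the 76 members that averaged at least 100 CPM, none of those in KO_CTR replicate 1 was above its group mean, and their median deviation was -0.20 on the log2 CPM scale. In KO_CTR replicate 2 and WT_CTR replicate 3, 66 of 76 members were above the group mean, with median deviations of 0.15 and 0.16. In KO_CTR replicate 3, 70 of 76 were above it, with a smaller median deviation of 0.050. The median deviation of all genes lay between -0.0047 and 0.030 in every library. In KO_CTR replicate 2, WT_CTR replicate 3 and KO_4OI replicate 3, the deviation was positively related to the GC content of the transcript across members (Pearson's r = 0.47, 0.51 and 0.50), and negatively in the other 6 libraries (-0.41 in KO_CTR replicate 3). Across all genes the signs were the same in all 9 libraries. These correlations run across genes that share a library and are given as a description. KO_4OI libraries were closest to each other: the median SD of a member over the 3 libraries was 0.062 in KO_4OI, 0.19 in KO_CTR and 0.15 in WT_CTR on the log2 scale, against 0.15, 0.23 and 0.14 for all genes of at least 100 CPM in the same groups.

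**Figure D2:**
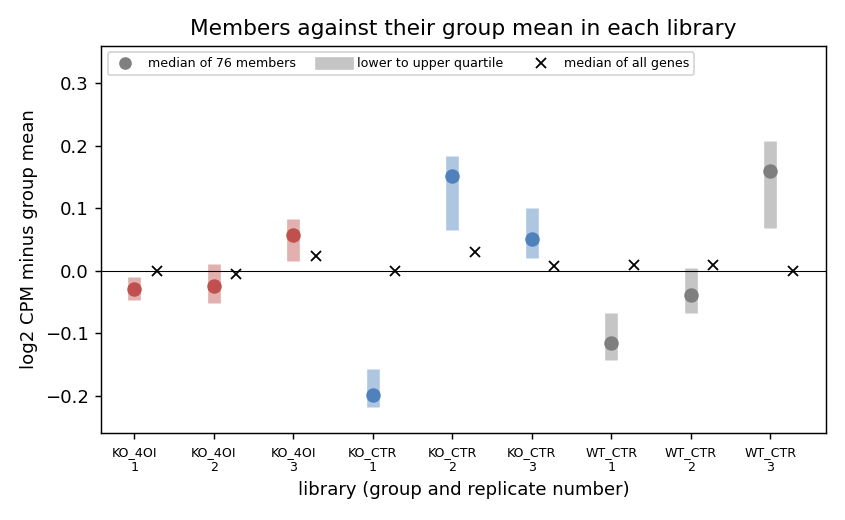
Deviation of the 76 members of at least 100 CPM from their own group mean in each of the 9 libraries (log2 CPM); dots are medians, bars span the lower to the upper quartile and crosses are the medians of all genes. The dots of KO_CTR replicate 1 (-0.20), KO_CTR replicate 2 (0.15) and WT_CTR replicate 3 (0.16) lie farthest from 0, while the crosses stay close to it.

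The summed share of reads in ribosomal protein genes was 7.53%, 7.53% and 7.63% in KO_4OI libraries, 7.93%, 9.02% and 9.11% in KO_CTR libraries and 7.42%, 7.83% and 8.76% in WT_CTR libraries. All 3 KO_4OI libraries were below all 3 KO_CTR libraries, and the WT_CTR libraries overlapped both groups. The means were 7.56 ± 0.0573%, 8.69 ± 0.657% and 8.002 ± 0.684% in the same order (SD, n = 3 each). No test was made of this sum. Summed large subunit reads were 139%, 139% and 139% of small subunit reads in KO_4OI libraries, 139%, 138% and 138% in KO_CTR libraries and 140%, 140% and 139% in WT_CTR libraries. Per gene, the median log2 CPM of large minus that of small subunit members averaged -0.31 ± 0.019 in KO_4OI, -0.33 ± 0.044 in KO_CTR and -0.23 ± 0.056 in WT_CTR (SD, n = 3 each). All WT_CTR libraries lay above all KO_4OI and KO_CTR libraries, but without paralogs the groups overlapped, and no test was made of either measure.

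**Figure D3:**
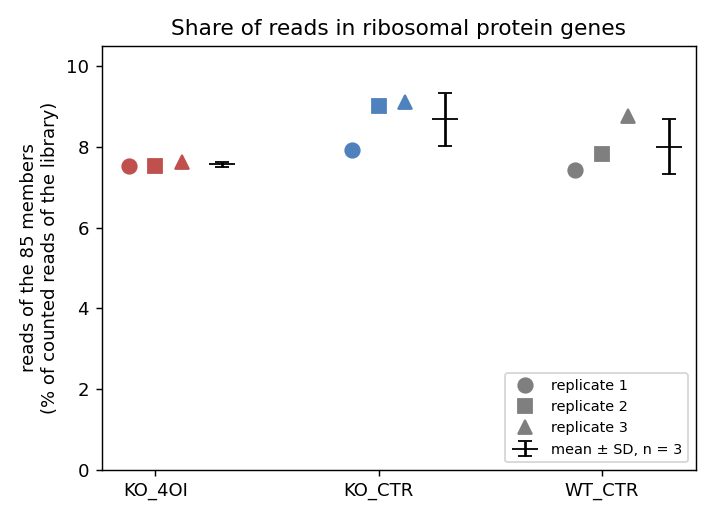
Reads of the 85 members as a percent of all counted reads of each library, by group, with the mean ± SD of 3 libraries beside the points. KO_4OI libraries lie at 7.53% to 7.63%, below the KO_CTR libraries at 7.93% to 9.11%, and WT_CTR libraries spread from 7.42% to 8.76%.

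Comparing KO_4OI with KO_CTR asks what the itaconate ester did to these transcripts in cells of the same genotype label. A single member passed the threshold: Rpl23a, which lies beside the exit of the nascent chain tunnel of the large subunit, was lower in KO_4OI. It had 562, 572 and 618 CPM in KO_4OI libraries and 694, 818 and 772 CPM in KO_CTR libraries, and the groups did not overlap. The log2 fold change was -0.38 ± 0.12 (SE), with an adjusted p of 0.0358 in edgeR's quasi-likelihood test. Of all genes tested, 27.3% were called in this comparison, 13% higher and 14.2% lower, so the share of members called (1.19%) was below that of all genes. At an unadjusted p under 0.05 there were 7 members, against 38.2% of all genes, and DESeq2 called 2 (Rpl23a and Rpl13a). The Rpl23a call was not kept without WT_CTR replicate 2 (adjusted p 0.0582), KO_CTR replicate 2 (0.0631), KO_CTR replicate 3 (0.0652), KO_4OI replicate 1 (0.144) or KO_4OI replicate 2 (0.0974), nor without the libraries with Xist reads (0.0821), with no low-count filter (0.0606), with summed-member scaling (0.0932) or when replicate numbers were blocked (0.0519). With no filter the single member called was Rpl39l (0.0128). The count of members called was 4 without WT_CTR replicate 3, 4 without KO_CTR replicate 1, 2 without WT_CTR replicate 1, and 0 without KO_CTR replicate 3, KO_4OI replicate 1 or KO_4OI replicate 2. Exons of Rpl23a, on the minus strand of chromosome 11 (mm10, 78180932 to 78183584), were overlapped over 62.3% of their bases, almost all by Tlcd1 on the other strand, which had 60 to 144 reads per library against 15321 to 25734 for Rpl23a.

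Most other members were slightly lower in KO_4OI without passing the threshold. The log2 fold change was below 0 for 78 of 84 members and for 48.3% of all genes, above 0 for 6 members and 51.7% of all genes, and its median was -0.16 for members and 0.019 for all genes. The members share libraries and scaling, so their common sign is not that many independent observations. Large and small subunit members had medians of -0.15 and -0.17. The 10 members that were lower without overlap (background 19.6%) were Rpl3, Rpl13a, Rpl22l1, Rpl23a, Rpl27a, Rpl39l, Rps13, Rps16, Rps27rt and Rps29. The single member higher without overlap (background 19.8%) was Rps27l. Among transcripts under 1 kb, the median was -0.16 for 58 members and -0.16 for 1651 other genes. Among those of 1 to 2 kb, it was -0.18 for 21 members and -0.031 for 3166 other genes, and other genes of 4 kb and over had 0.12. By GC content of the transcript, members had medians between -0.17 and -0.13 in all 4 bins, whereas other genes had 0.24 under 45%, 0.097 at 45 to 50%, -0.045 at 50 to 55% and -0.17 at 55% and over. The median without KO_CTR replicate 1 was -0.24 and without KO_CTR replicate 3 -0.13. Scaling to the members' own summed reads put the members' median at 0.0058 by construction and the median of all genes at 0.17, and turned the calls over all genes to 2150 higher and 1395 lower, against 1856 higher and 2031 lower. The part of transcript length, GC content and cell makeup in the common shift was not tested.

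The intervals give a range for the change of each member by itself, under TMM scaling and without adjustment over the members. The 95% interval of the log2 fold change lay within 1.5-fold either way for 70 of 84 members (23.7% of all genes) and within 2-fold for 82 of 84 (58.9% of all genes). Members of at least 100 CPM had a median SE of 0.13. Beside Rpl39l and Rpl13a, the values farthest from the members' median were Rps27rt (-0.54 ± 0.38, SE) on the low side and Rps10 (0.25 ± 0.24), Rps27l (0.23 ± 0.14) and Rpl7l1 (0.073 ± 0.13) on the high side, none past the threshold. Rpl39l had the lowest fold change, with 16, 18 and 24 reads in KO_4OI libraries and 44, 28 and 56 reads in KO_CTR libraries, and a log2 fold change of -1.10 ± 0.39 (SE; adjusted p 0.0505). Rpl13a, which in human and mouse myeloid cells also leaves the ribosome to silence inflammatory messages, had 57.0, 57.3 and 57.7 CPM in KO_4OI libraries and 65.1, 88.8 and 78.2 CPM in KO_CTR libraries. Its groups did not overlap, and its log2 fold change was -0.43 ± 0.15 (SE; adjusted p 0.0530). Rpl13a passed the threshold in the fit without KO_CTR replicate 1 (adjusted p 0.0333) and in the fit leaving out WT_CTR replicate 3 (0.0417). It also passed with upper-quartile factors (0.0371), in DESeq2 (0.0401) and with a mean of at least 5 CPM (0.0471). Rpl39l passed in the fits leaving out KO_CTR replicate 2 (0.0208), WT_CTR replicate 1 (0.0257), WT_CTR replicate 2 (0.0496) and WT_CTR replicate 3 (0.0486). It also passed with no low-count filter (0.0128), only the 2 groups compared (0.0305), upper-quartile factors (0.0379), RLE factors (0.0494) and pseudogene reads added. Rpl27a, a large subunit protein, had 943, 928 and 963 CPM in KO_4OI libraries against 1056, 1316 and 1198 CPM in KO_CTR libraries (log2 fold change -0.33 ± 0.13, SE; adjusted p 0.0764). It passed in the fit leaving out WT_CTR replicate 3 (0.0440) and in the fit leaving out KO_CTR replicate 1 (0.0446). Rpl22l1 passed in the fit leaving out KO_CTR replicate 1 (0.0491) and with upper-quartile factors (0.0471).

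The 10 genes described next, picked for their place in the ribosome or a role outside it, did not pass the threshold. The stalk genes Rplp0, Rplp1 and Rplp2 had log2 fold changes of -0.24, -0.17 and -0.17 in KO_4OI against KO_CTR, with SEs of 0.14, 0.14 and 0.16. Rplp0, the base of the stalk, had 2783, 2834 and 3007 CPM in KO_4OI libraries and 2861, 3971 and 3370 CPM in KO_CTR libraries, and these ranges overlapped. Rpl5 and Rpl11, which with 5S ribosomal RNA can bind and inhibit Mdm2, had the values nearest to 0 among these genes. Rpl5 had 930, 986 and 841 CPM in KO_4OI libraries and 903, 814 and 1101 CPM in KO_CTR libraries, a log2 fold change of -0.031 with a 95% interval from -0.33 to 0.27. Rpl11 averaged 889 ± 43.7 CPM in KO_4OI and 911 ± 103 CPM in KO_CTR (SD, n = 3 each), a log2 fold change of -0.035 with an interval from -0.30 to 0.23. Rps6, the substrate of S6 kinases, averaged 897 ± 72.2 CPM in KO_4OI and 959 ± 143 CPM in KO_CTR, with a log2 fold change of -0.096 ± 0.14 (SE). Rps19, mutated in human Diamond-Blackfan anaemia, had a log2 fold change of -0.23 ± 0.14, and Rps3, at the entry of the messenger RNA channel, one of -0.18 ± 0.14. Rpsa, also known as the laminin receptor, had -0.17 ± 0.14, and Rps27a, made as a fusion with ubiquitin, -0.12 ± 0.13. Adjusted p-values of these 10 genes ran from 0.232 to 0.892 in edgeR's quasi-likelihood test, so neither a change nor its absence was shown for them beyond the stated intervals.

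**Figure D4:**
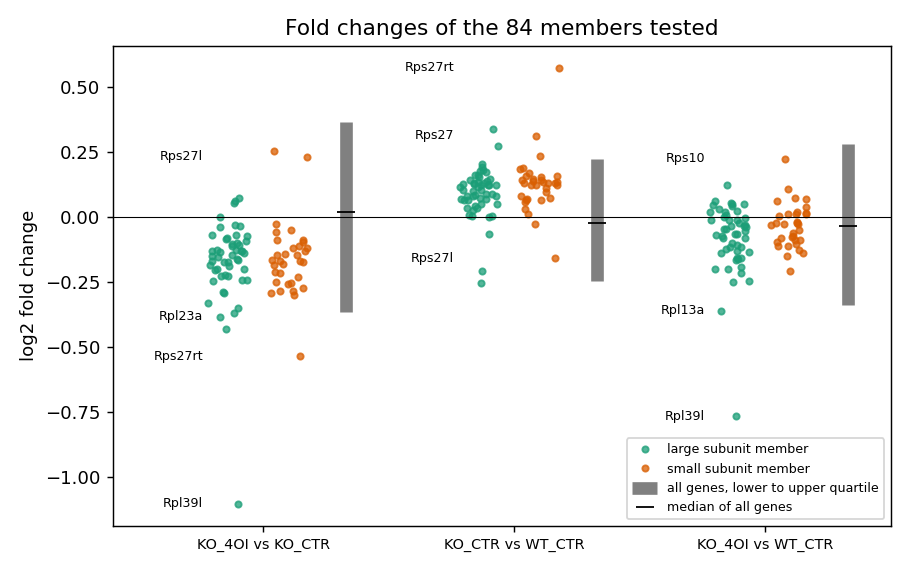
Log2 fold change of each of the 84 members tested in the 3 comparisons, large and small subunit members in separate columns, beside a bar from the lower to the upper quartile of all genes with their median. Members have medians of -0.16, 0.12 and -0.048. In KO_4OI against KO_CTR, the quartiles of all genes are -0.36 and 0.36, and the low-count copies Rpl39l and Rps27rt have the lowest values among members.

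The paralog pair of Rps27 and Rps27l had opposite signs in both comparisons that involve KO_CTR, although neither gene passed the threshold. Rps27l, which in human and mouse cells is a target of p53, had 216, 197 and 223 CPM in KO_4OI libraries, 159, 188 and 194 CPM in KO_CTR libraries and 185, 192 and 227 CPM in WT_CTR libraries. Its near twin Rps27, a zinc finger protein of the small subunit, had 429, 421 and 473 CPM in KO_4OI libraries, 473, 610 and 545 CPM in KO_CTR libraries and 378, 451 and 483 CPM in WT_CTR libraries. For Rps27l, KO_CTR libraries lay below KO_4OI libraries without overlap and overlapped WT_CTR libraries. For Rps27, each pair of groups overlapped. Rps27l had a log2 fold change of 0.23 ± 0.14 (SE; adjusted p 0.241) in KO_4OI against KO_CTR and -0.16 ± 0.14 (adjusted p 0.567) in KO_CTR against WT_CTR. Rps27 had -0.30 ± 0.14 (adjusted p 0.135) and 0.31 ± 0.14 (adjusted p 0.271) in the same comparisons. When libraries were scaled to the summed reads of the ribosomal protein genes themselves, Rps27l was the only member called in any comparison, with a log2 fold change of 0.39 and an adjusted p of 0.0188 in KO_4OI against KO_CTR. By construction that scaling raised the members in general in this comparison, their median moving from -0.16 to 0.0058. The call is therefore not separate support for a change of Rps27l.

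The ratio within a library does not depend on scaling. Rps27l reads were 50.2%, 46.8% and 47.0% of Rps27 reads in KO_4OI libraries, 33.7%, 30.8% and 35.7% in KO_CTR libraries and 49.0%, 42.6% and 47.1% in WT_CTR libraries. All 3 KO_CTR libraries were below all other 6. The log2 ratio was higher by 0.53 in KO_4OI than in KO_CTR and lower by 0.47 in KO_CTR than in WT_CTR (log2 difference -0.47), each with an exact two-sided permutation p of 0.1 (n = 3 each), the smallest that 3 against 3 libraries can give, and 0.375 after adjustment over the 15 tests of 5 ratios. KO_4OI and WT_CTR overlapped, with a log2 difference of 0.058 (exact permutation p 0.6, adjusted 0.692). These comparisons share the KO_CTR libraries, so a low value in KO_CTR enters both.

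Rpl22l1, the paralog of the RNA-binding large subunit protein Rpl22, had reads equal to 12.4%, 12.2% and 11.6% of Rpl22 in KO_4OI libraries, 14.1%, 12.9% and 14.8% in KO_CTR libraries and 14.04%, 13.4% and 12.4% in WT_CTR libraries. KO_4OI was below KO_CTR without overlap (log2 difference -0.20, exact permutation p 0.1, adjusted 0.375), and the other 2 comparisons overlapped. Rpl39l was a small fraction of Rpl39, at 0.135%, 0.148% and 0.196% in KO_4OI libraries, 0.379%, 0.243% and 0.419% in KO_CTR libraries and 0.502%, 0.191% and 0.193% in WT_CTR libraries. KO_4OI was again below KO_CTR without overlap (log2 difference -1.02, exact permutation p 0.1, adjusted 0.375), while WT_CTR replicate 1 stood above its group. Rpl36al averaged 0.406%, 0.343% and 0.444% of Rpl36a in KO_4OI, KO_CTR and WT_CTR, and Rpl3l 0.0396%, 0.0361% and 0.0412% of Rpl3, with overlap in all comparisons of both. Reads that fit a paralog and its parent equally well may have been dropped, which lowers both sides of these ratios by unknown amounts.

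**Figure D5:**
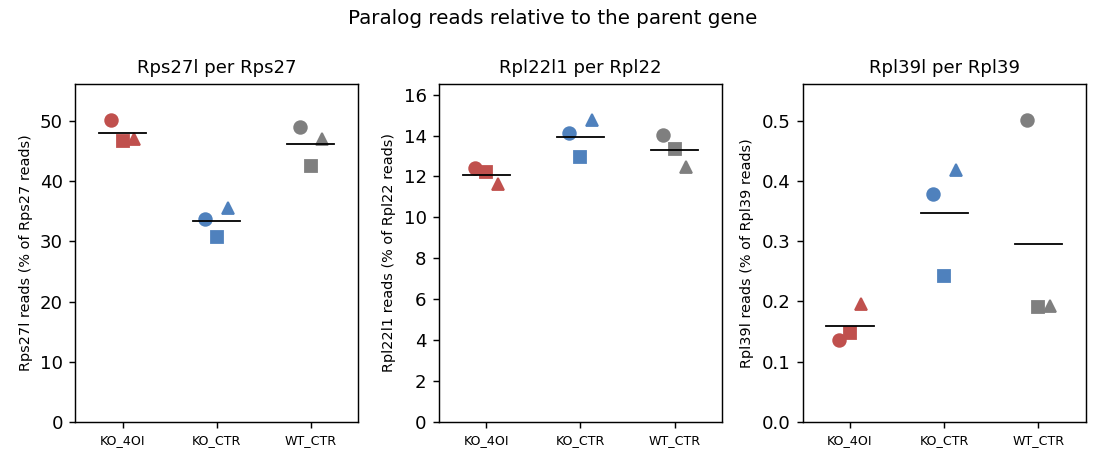
Reads of 3 paralogs as a percent of the reads of their parent gene in each library (circle, square and triangle for replicates 1, 2 and 3), with a line at the mean of each group. Rps27l per Rps27 lies at 30.8% to 35.7% in KO_CTR and at 42.6% or above in KO_4OI and WT_CTR, while Rpl22l1 and Rpl39l are lower in KO_4OI than in KO_CTR without overlap.

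Comparing KO_CTR with WT_CTR asks about the genotype label without treatment. No member passed the threshold in edgeR's quasi-likelihood test or in DESeq2, against 0.519% of all genes in edgeR (0.47% higher and 0.0491% lower). At an unadjusted p under 0.05 there was 1 member, Rps27, against 17.8% of all genes. The log2 fold change was above 0 for 79 of 84 members and 46.9% of all genes, with medians of 0.12 and -0.025. Among transcripts under 1 kb, members had a median of 0.12 and other genes one of 0.11. At 1 to 2 kb, members had 0.12 and other genes 0.036, and other genes of 4 kb and over had -0.13. Over the 4 GC bins, members had medians between 0.085 and 0.13, and other genes between -0.18 under 45% and 0.076 at 55% and over. The members' median was 0.23 with WT_CTR replicate 3 left out, 0.19 with KO_CTR replicate 1 left out and 0.056 with WT_CTR replicate 1 left out. The 5 members below 0 (53.1% of all genes) were Rpl36al (-0.26), Rpl7l1 (-0.21), Rps27l (-0.16), Rpl3l (-0.065) and Rps10 (-0.028). Rpl7l1, a relative of Rpl7 linked to ribosome assembly, had 132, 142 and 146 CPM in KO_CTR libraries and 174, 152 and 160 CPM in WT_CTR libraries. It was the only member lower without overlap (background 9.56%), with an adjusted p of 0.412, and no member was higher without overlap (background 10.2%). At the other end stood Rps27rt (0.57 ± 0.38, SE), which rests on the low count of WT_CTR replicate 1, Rpl39l (0.34 ± 0.37) and Rps27 (0.31 ± 0.14). The 95% interval lay within 1.5-fold for 78 of 84 members (34.6% of all genes) and within 2-fold for 82 (72.6%).

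Comparing KO_4OI with WT_CTR sets the treated cells beside wild-type cells that did not receive the compound. No member passed the threshold in edgeR's quasi-likelihood test or in DESeq2, against 24.3% of all genes in edgeR (12.1% higher and 12.2% lower). At an unadjusted p under 0.05 there was 1 member, Rpl13a, against 34.4% of all genes. It had 57.0, 57.3 and 57.7 CPM in KO_4OI libraries and 65.7, 71.1 and 84.2 CPM in WT_CTR libraries, a log2 fold change of -0.36 ± 0.15 (SE; adjusted p 0.111). Members had a median log2 fold change of -0.048, all genes one of -0.034, and 60 of 84 members were below 0 against 53.1% of all genes, with 24 above 0 against 46.9%. Without WT_CTR replicate 3 the members' median was 0.052, on the other side of 0. The members lower without overlap (9, background 22.1%) included Rpl3, Rpl13a, Rpl22l1, Rpl23a, Rpl27a and Rps13, which were also lower without overlap against KO_CTR, and the KO_4OI libraries are common to both counts. The single member higher without overlap (background 19.8%) was Rpl9, at 0.06. Beside Rpl13a, the values farthest out were Rpl39l (-0.77 ± 0.39, SE) and Rpl23a (-0.25 ± 0.12) on the low side and Rps10 (0.22 ± 0.24), Rpl10 (0.12 ± 0.14) and Rps4x (0.11 ± 0.12), the last 2 on chromosome X, on the high side. The 95% interval lay within 1.5-fold for 77 of 84 members (26.7% of all genes) and within 2-fold for 83 (62.1%).

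Fau and Rack1 encode proteins of the small subunit under other symbols and so fell outside the naming rule. Fau, made as a fusion with a ubiquitin-like protein, averaged 964 ± 49.5 CPM in KO_4OI, 1199 ± 188 CPM in KO_CTR and 1074 ± 168 CPM in WT_CTR (SD, n = 3 each). Rack1, a signalling scaffold on the small subunit, averaged 1457 ± 82.0, 1670 ± 252 and 1498 ± 219 CPM in the same groups. In KO_4OI against KO_CTR, the log2 fold change was -0.31 ± 0.15 (SE; adjusted p 0.138) for Fau and -0.20 ± 0.14 (adjusted p 0.338) for Rack1. Neither passed the threshold in edgeR or DESeq2 in any comparison, and 0 of these genes had an unadjusted p under 0.05 in edgeR.

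Mitochondrial ribosomal protein genes, whose products form the separate ribosome that translates mitochondrial messages, had more calls. In KO_4OI against KO_CTR, 24 of 77 tested fell and 0 rose, with a median log2 fold change of -0.24. Of all genes, 14.2% fell and 13% rose in this comparison, and of the 84 cytosolic members 1 fell. Mrps35 averaged 41.4 ± 1.26 CPM in KO_4OI and 86.7 ± 6.59 CPM in KO_CTR (SD, n = 3 each; log2 fold change -1.07). Mrpl52 averaged 73.8 ± 6.17 CPM in KO_4OI and 154 ± 16.9 CPM in KO_CTR (-1.06), Mrpl41 42.6 ± 1.59 and 74.0 ± 9.59 CPM (-0.80), and Mrpl48 47.0 ± 0.667 and 76.04 ± 7.86 CPM (-0.69). These 4 kept their calls in every alternative run. Scaled to the summed reads of the cytosolic members, 7 fell and 2 rose. The count was 8 without KO_4OI replicate 1 and 9 without KO_4OI replicate 2, and it was 15 when WT_CTR replicate 1 or WT_CTR replicate 2 was left out. In KO_4OI against WT_CTR, 32 of 77 fell and 1 rose (median -0.39), where 12.2% of all genes fell and 12.1% rose. The 33 called in all became 14 or 17 when KO_4OI replicate 1 or KO_4OI replicate 2 was left out. Leaving out WT_CTR replicate 1, WT_CTR replicate 2 or WT_CTR replicate 3 gave 22, 21 and 17. In KO_CTR against WT_CTR none passed in edgeR or DESeq2, with 2 at an unadjusted p under 0.05 (17.8% of all genes; median -0.085). Whether mitochondrial and cytosolic sets differ was not tested.

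Genes that build ribosomes were examined as a list of 68, all tested. In KO_4OI against KO_CTR, 3 rose and 1 fell, against 13% and 14.2% of all genes, with a median log2 fold change of 0.25 (0.019 for all genes). Nop10, a protein of the particles that pseudouridylate ribosomal RNA, fell to 57.4 ± 1.53 CPM in KO_4OI, against 90.2 ± 9.28 CPM in KO_CTR (SD, n = 3 each), and kept its call in every alternative run. Polr1e, a subunit of RNA polymerase I, rose to 14.4 ± 1.16 CPM in KO_4OI, against 9.53 ± 2.25 CPM in KO_CTR, Rrp1b, a nucleolar processing factor, to 25.02 ± 5.91 against 16.3 ± 3.46 CPM, and Nip7, a factor of subunit assembly, to 50.3 ± 4.39 against 37.7 ± 1.57 CPM. Of the 9 fits that left out 1 library, Nip7 passed only without KO_4OI replicate 2, Polr1e without WT_CTR replicate 1, KO_CTR replicate 3 or KO_4OI replicate 3, and Rrp1b without KO_CTR replicate 1 or KO_4OI replicate 2. The count for the list was 7 without KO_CTR replicate 3, 6 without KO_4OI replicate 2, 2 without WT_CTR replicate 1, WT_CTR replicate 3 or KO_4OI replicate 3, and 1 without WT_CTR replicate 2, KO_CTR replicate 2 or KO_4OI replicate 1, and upper-quartile scaling gave 0 higher and 2 lower. In KO_4OI against WT_CTR, 0 rose and 4 fell (Nop10, Rrs1, Rrp12 and Polr1b), against 12.1% and 12.2% of all genes, with a median of -0.26 (-0.034 for all genes). Nop10 kept its call in every alternative run. Rrs1 and Rrp12 lost theirs without WT_CTR replicate 1, KO_4OI replicate 1 or KO_4OI replicate 2, and with summed-member scaling. Polr1b passed only without KO_CTR replicate 2, KO_CTR replicate 3 or KO_4OI replicate 3 among those 9 fits. In KO_CTR against WT_CTR none was called in edgeR, with a median of -0.50 (-0.025 for all genes). At an unadjusted p under 0.05 there were 44 of 68, against 17.8% of all genes, and DESeq2 called 16. The values of most ribosomal proteins themselves were slightly higher in KO_CTR than in WT_CTR, and the difference between the lists was not tested.

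Other messages with a TOP tract and the regulators of the tract gave few calls, read against the 13% of all genes that rose and the 14.2% that fell in KO_4OI against KO_CTR. Of 28 translation factors and other TOP messages tested, 1 rose and 1 fell in KO_4OI against KO_CTR: Nap1l1, a histone chaperone, averaged 531 ± 27.9 CPM in KO_4OI and 291 ± 51.5 CPM in KO_CTR (SD, n = 3 each), and Snhg6, a small nucleolar RNA host gene, 32.9 ± 1.18 and 46.1 ± 3.41 CPM. Nap1l1 kept its call in every alternative run, and Snhg6 did not without KO_4OI replicate 1 (adjusted p 0.0680) or KO_4OI replicate 2 (0.0582). The Snhg6 call was also lost with no low-count filter (0.0553), without the libraries with Xist reads (0.0741) and with summed-member scaling (0.0994). Of 28 other initiation factors, 2 rose and 0 fell: Eif1a averaged 110 ± 17.4 CPM in KO_4OI and 59.3 ± 16.3 CPM in KO_CTR, and Eif4e3, a cap-binding relative of Eif4e, 30.9 ± 1.60 and 21.3 ± 1.96 CPM. Eif1a kept its call in every alternative run. Eif4e3 did not without KO_CTR replicate 1 (adjusted p 0.0547) or without the libraries with Xist reads (0.0741). Of 26 mTORC1, MYC and TOP regulators, 0 rose and 2 fell. Eif4ebp1, the mTORC1 substrate that holds back cap-dependent initiation, averaged 124 ± 2.72 CPM in KO_4OI and 188 ± 26.6 CPM in KO_CTR (log2 fold change -0.61, kept in every alternative run). Deptor, a binding partner and inhibitor of mTOR, averaged 22.6 ± 5.50 and 39.3 ± 11.7 CPM. Its call was not kept without KO_CTR replicate 1 (adjusted p 0.103), KO_CTR replicate 3 (0.0932), KO_4OI replicate 1 (0.0908) or KO_4OI replicate 3 (0.0942). It was also lost without the libraries with Xist reads (0.112), with summed-member scaling (0.146) and when replicate numbers were blocked (0.0618).

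Kinases and binding partners of ribosomal proteins rose in 3 of 12 cases in KO_4OI against KO_CTR and fell in 0, where 13% of all genes rose and 14.2% fell. Rps6ka3, a kinase that phosphorylates Rps6, averaged 98.5 ± 21.9 CPM in KO_4OI and 51.2 ± 12.4 CPM in KO_CTR (SD, n = 3 each; log2 fold change 0.94). Cdkn1a, the p53 target that encodes the cell cycle inhibitor p21, averaged 224 ± 38.4 CPM in KO_4OI and 128 ± 22.8 CPM in KO_CTR (0.80), and both kept their calls in every alternative run. Mdm2, the p53 ligase bound by Rpl5 and Rpl11 and itself a p53 target, averaged 143 ± 8.54 and 86.0 ± 26.7 CPM (0.74). It was not called without KO_4OI replicate 1 (adjusted p 0.0639) or KO_4OI replicate 2 (0.0767). Its call was also lost without the libraries with Xist reads (0.0570) and when replicate numbers were blocked (0.0505). Of 18 genes of ribosome rescue and quality control, 2 rose and 0 fell. Map3k20, the kinase ZAK that senses collided ribosomes, averaged 42.1 ± 5.23 CPM in KO_4OI and 17.6 ± 3.74 CPM in KO_CTR (1.26, kept in every alternative run), and Vcp, an unfolding ATPase with many other substrates, 564 ± 27.9 and 392 ± 82.6 CPM. Vcp was not called without KO_CTR replicate 2 (adjusted p 0.0987), KO_4OI replicate 1 (0.106) or KO_4OI replicate 2 (0.0668). Its call was also lost with only the 2 groups compared (0.0563) and without the libraries with Xist reads (0.0661).

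Several of these genes were also called against WT_CTR, with the same KO_4OI libraries in both comparisons. Pabpc1, Eif2b3, Eif2b4 and Eif1ad, named below, were called against WT_CTR only. In KO_4OI against KO_CTR their adjusted p-values were 0.220, 0.711, 0.0842 and 0.757 in edgeR's quasi-likelihood test, and Eif1ad had a log2 fold change of 0.063 there. In KO_4OI against WT_CTR, Map3k20 (log2 fold change 0.82), Cdkn1a (0.83), Rps6ka3 (0.69), Nap1l1 (0.46) and Eif4e3 (0.57) were higher, and Eif4ebp1 (-0.65), Deptor (-0.76), Snhg6 (-0.43), Pabpc1 (-0.44), Eif2b3 (-0.74), Eif2b4 (-0.50) and Eif1ad (-0.40) were lower, all past the threshold, as were 24.3% of all genes. Map3k20 and Eif4ebp1 kept these calls in every alternative run, and Cdkn1a in all but the fit without the libraries with Xist reads (adjusted p 0.0564). Each of the other genes lost its call in some fits leaving out 1 library and in at least 1 other alternative. With 1 library left out, Eif4e3 did not pass without WT_CTR replicate 1 or 2, and Eif2b3 not without WT_CTR replicate 1, WT_CTR replicate 2 or KO_4OI replicate 2. Pabpc1, Eif2b4 and Rps6ka3 lost their calls when any WT_CTR library, KO_4OI replicate 1 or KO_4OI replicate 2 was left out. Snhg6 lost its call when any WT_CTR or KO_4OI library was left out, and Eif1ad when any WT_CTR library, KO_CTR replicate 1, KO_4OI replicate 1 or KO_4OI replicate 2 was. Among the fits leaving out 1 library, Deptor passed only without WT_CTR replicate 3, KO_CTR replicate 2, KO_CTR replicate 3 or KO_4OI replicate 2, and Nap1l1 only without WT_CTR replicate 1, KO_CTR replicate 2 or KO_CTR replicate 3. Pabpc1 encodes the poly(A)-binding protein and Eif2b3 and Eif2b4 subunits of the exchange factor that recharges eIF2. In KO_CTR against WT_CTR, edgeR called no gene of any of these lists. At an unadjusted p under 0.05 there were 5 TOP messages, 12 initiation factors, 6 regulators, 2 kinases and partners and 6 rescue genes (of 28, 28, 26, 12 and 18 tested), against 17.8% of all genes, and DESeq2 called 0, 1, 1, 0 and 0 of them.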

How the data were processed

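RNA-seq read counts of 9 libraries in 3 groups were analysed. The deposited table holds raw counts per Ensembl gene, 1 column per library. The submitters' processing notes name mm10, HTSeq 0.6.1, STAR and fastp. Strand setting and annotation release are not stated there, so overlapping genes on opposite strands and close copies may not be told apart. Of 54532 IDs, 54409 had a symbol. Overlaps and transcript lengths came from GENCODE vM21 on the same build, and start windows from RefSeq, with 65 members matched.

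Genes kept by filterByExpr (minimum count 10; 14264 genes) were scaled by TMM and fitted with group as the only factor over all 9 libraries (edgeR 4.0.16, glmQLFTest, R 4.3.3). Two-sided p-values were adjusted over these genes (Benjamini-Hochberg), and 0.05 was the threshold. The SE was taken from the F statistic of each gene. CPM uses TMM library sizes, and log2 CPM a prior count of 2. Ratios of paralogs were tested by exact permutation. Nothing in the labels says that replicates came from separate animals. Xist reads in some but not all libraries of WT_CTR and KO_4OI mean that these groups held cells of different animals. How many animals there were, and whether KO_CTR had more than a single animal, is not known. The p-values therefore measure the spread between libraries, part of which may be technical. Chi-square per gene between libraries of a group was 8.93 to 103, so no 2 were taken as the same library. The steps were tested on simulated data.

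Members and lists were chosen with earlier results of these data known. Named are up to 8 members each way past the threshold, the paralogs, the 5 highest and 5 lowest members per length, members with special roles, up to 3 each way farthest from the median, and up to 4 called genes per list; members at an unadjusted p under 0.05, those without overlap and the KO_CTR members below 0 were named after their values were seen. The interval counts and the length, GC and pseudogene summaries were also added after seeing the data. Alternatives were other scalings, filters, DESeq2 1.42.0, 2-group fits, a replicate block and libraries left out. A gene of the lists is not reported here.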

Additional observations from a re-analysis of the deposited data

How the results depend on the processing

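Depth was not the limit for most members, whose SEs come mainly from the spread between libraries of a group. That spread was estimated in one fit over all 9 libraries, not from the 2 groups compared alone. Of 84 members, the count called in KO_4OI against KO_CTR was 1 and became 2 with RLE factors, a mean of at least 5 CPM, DESeq2, only the 2 groups compared or pseudogene reads added, 4 with upper-quartile factors, 0 with the replicate block or without the libraries with Xist reads, and 0 to 4 with 1 library left out. It stayed at 0 in the other comparisons under every alternative run. Scaling to summed member reads set the members' median log2 fold change to 0.0058 in KO_4OI against KO_CTR and 0.0056 in KO_CTR against WT_CTR, as it must by construction. Leaving out 1 library gave a median of 0.056 to 0.23 in KO_CTR against WT_CTR. Genes called over all lists in KO_4OI against KO_CTR were 39, or 24 with the 2 groups alone, 22 with the replicate block, 21 without the libraries with Xist reads and 16 to 40 with 1 library left out. In KO_CTR against WT_CTR they were 0, or 28 with no low-count filter, 18 with DESeq2 and 0 to 2 with 1 library left out. In KO_4OI against WT_CTR they were 49, or 31 with the replicate block, 31 without the libraries with Xist reads and 20 to 65 with 1 library left out. The cause of these differences was not tested. The large minus small subunit median of log2 CPM, KO_CTR minus WT_CTR, was -0.095, or -0.050 without paralogs. The share of members with a TOP tract was 46.2%, or 61.5% with the wider window. With 1 library left out, log2 paralog ratios in KO_4OI against WT_CTR crossed 0: -0.00025 to 0.10 for Rps27l, -0.27 to 0.089 for Rpl36al and -0.16 to 0.057 for Rpl3l. Over 1496 combinations of gene, comparison and alternative for the genes whose fold changes are printed, 21 turned the sign, all for values that had not passed the threshold, and 1299 kept both sign and side of the threshold. In KO_4OI against KO_CTR, summed-member scaling gave 0.13 for Rpl11, 0.12 for Rpl5, 0.044 for Rps27a and 0.062 for Rps6. With 1 library left out, values there ran from -0.13 to 0.024 for Rpl11, -0.15 to 0.099 for Rpl5, -0.20 to 0.032 for Rps6 and -0.096 to 0.44 for Rps10. Without the libraries with Xist reads, Rpl5 had 0.030 and Rps10 -0.096, and pseudogene reads gave Rps10 -0.023. In KO_CTR against WT_CTR, upper-quartile factors gave 0.014 for Rpl3l and 0.051 for Rps10, a mean of at least 5 CPM gave Rps10 0.00055 and pseudogene reads 0.097. With 1 library left out, Rpl3l ran from -0.20 to 0.083 and Rps10 from -0.13 to 0.10. In KO_4OI against WT_CTR, Rps10 had -0.17 without the libraries with Xist reads and -0.13 to 0.41 with 1 library left out. Libraries with the same replicate number deviated together in some groups and not in others (r from -0.41 to 0.32 over all genes). Libraries with different numbers had r from -0.41 to 0.54. These correlations therefore cannot tell whether the numbers pair the libraries. A call lost with the replicate block counts as not kept, and the loss by itself says nothing about size.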
